A study of Mus musculus with 4 samples.

Results

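The insulin-like growth factor (IGF) system was described here through 9 genes: the ligands Igf1 and Igf2, the receptor Igf1r and the binding proteins Igfbp2 to Igfbp7. They were picked by gene symbol among the 55357 genes of the deposited count tables, and each symbol named 1 gene. The tissue was the ascending aorta of male wild-type (WT) mice, and its cells were profiled one by one in droplets with the 3′ assay of 10x Genomics. Each RNA molecule caught in a droplet is tagged, and the counts are of these tags (unique molecular identifiers, UMIs). All mice received β-aminopropionitrile (BAPN), an inhibitor of lysyl oxidase that weakens the aortic wall and leads to dissection, from 3 weeks of age at 1 g/kg per day for 4 weeks. The AD_ABR mice also received paquinimod, a small molecule that binds S100A9, at 10 mg/kg per day, and the AD mice received BAPN alone. Each group had 2 libraries. No untreated aorta was in the design, so every difference is between BAPN with paquinimod and BAPN alone, and whether a library is 1 mouse or a pool was not given in the sources used here.

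IGF1 and IGF2 are secreted growth factors that act through the receptor tyrosine kinase IGF1R, which signals through insulin receptor substrates to PI3K and Akt. IGF-binding proteins hold the ligands in the extracellular space, where proteases such as PAPP-A and HTRA1 cut them and free the ligand. In the arterial wall IGF1 is known as a survival and growth signal for smooth muscle cells. IGFBP7 binds IGFs weakly and is known mainly as a secreted matrix protein of vessels.

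Annotation (GENCODE M21, GRCm38) placed the members on 6 chromosomes, all as protein-coding genes. Igf1 lay at chr10:87858265-87937042 on the plus strand, Igf2 at chr7:142650766-142666816 on the minus strand and Igf1r at chr7:67952827-68233668 on the plus strand. Igfbp2 (chr1:72824503-72852474, plus strand) and Igfbp5 (chr1:72857932-72874884, minus strand) lay tail to tail with 5457 bases between their ends. Igfbp3 (chr11:7206086-7213923, minus strand) and Igfbp4 (chr11:99041244-99054392, plus strand) shared a chromosome but not a neighbourhood. Igfbp6 lay at chr15:102144362-102149511 on the plus strand and Igfbp7 at chr5:77349240-77408041 on the minus strand. UMIs from the 3′ end do not separate the transcript forms of a gene.

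The promoters of 4 genes with called differences between groups are printed: the neighbours Igfbp2 and Igfbp5, whose levels moved in opposite directions in 1 smooth muscle cluster, and Igfbp4 and Igfbp7, each called in more than 1 of the main classes. Igf1 and Igfbp6 were also called in places, and their promoters are not printed. Each line gives the 250 bases before a RefSeq transcript start (GRCm38.p6), read 5′ to 3′ on the strand of the gene, with motif matches in capitals.
Igfbp2, chr1:72824230-72824479, plus strand: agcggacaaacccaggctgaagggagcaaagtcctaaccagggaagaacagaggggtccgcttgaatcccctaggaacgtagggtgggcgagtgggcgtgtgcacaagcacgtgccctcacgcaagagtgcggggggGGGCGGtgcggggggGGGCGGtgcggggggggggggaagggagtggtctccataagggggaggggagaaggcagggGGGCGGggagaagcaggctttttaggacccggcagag
Igfbp5, chr1:72874866-72875115, minus strand: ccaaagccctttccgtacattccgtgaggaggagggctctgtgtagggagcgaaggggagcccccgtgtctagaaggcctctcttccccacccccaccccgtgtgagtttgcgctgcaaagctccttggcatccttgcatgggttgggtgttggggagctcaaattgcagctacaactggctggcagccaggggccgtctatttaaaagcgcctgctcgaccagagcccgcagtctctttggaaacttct
Igfbp4, chr11:99040994-99041243, plus strand: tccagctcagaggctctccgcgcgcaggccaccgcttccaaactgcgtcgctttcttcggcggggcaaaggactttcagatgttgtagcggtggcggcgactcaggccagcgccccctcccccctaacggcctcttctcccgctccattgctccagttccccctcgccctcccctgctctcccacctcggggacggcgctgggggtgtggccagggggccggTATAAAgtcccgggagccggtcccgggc
Igfbp7, chr5:77408046-77408295, minus strand: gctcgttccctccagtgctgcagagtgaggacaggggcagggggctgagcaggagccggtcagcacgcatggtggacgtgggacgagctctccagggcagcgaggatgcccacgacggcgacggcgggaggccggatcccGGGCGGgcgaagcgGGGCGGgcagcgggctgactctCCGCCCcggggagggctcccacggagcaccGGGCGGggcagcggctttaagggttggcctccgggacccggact
The motifs searched on both strands were the TATA box (TATAAA), the CCAAT box (spelled CCAAT), a FoxO motif (GTAAACA), an AP-1 motif (TGANTCA), a core of the glucocorticoid response element (ACANNNTGT) and the GC box (GGGCGG), and no match overlapped another. The Igfbp2 window held GGGCGG 3 times and that of Igfbp7 held it 4 times, a motif present in 32.7% of 32851 promoter windows of the same length. Igfbp4 held TATAAA at position -28 from the start, a motif present in 12.4% of the windows. None of the 6 motifs was found in the Igfbp5 window. RefSeq gives Igfbp2 a second start, whose window at chr1:72825137-72825386 is not printed and held no GGGCGG but 1 match of the AP-1 motif, at position -39. A match or its absence describes the letters of the window and nothing about a factor.

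The files held 93575612 and 98946431 UMIs in the AD_ABR libraries, against 76142840 and 99572011 in the AD libraries, and 37259 cells were kept after filtering. No deposited cell annotation was used, so cells were clustered without the 9 members and without 42 further IGF-pathway genes. The clusters were named from marker lists, with the ending -like, or called by number where the markers did not carry a name. Levels are given in CPM, the UMIs of a gene per 1000000 UMIs summed over the cells of 1 class and library, and 9 classes or unnamed clusters with at least 50 cells in every library (called units) were tested. Smooth muscle-like cells (Myh11, Acta2) numbered 3637 and 2901 in AD_ABR and 967 and 2266 in AD. Fibroblast-like cells (Pdgfra, Dcn) numbered 847 and 1732 in AD_ABR and 567 and 1533 in AD, macrophage-like cells (Csf1r) 452 and 978 in AD_ABR and 1826 and 1016 in AD, and endothelial-like cells (Cdh5, Pecam1) 239 and 274 in AD_ABR and 200 and 478 in AD. The other units were dendritic-like cells, cluster 1 (led by Fmod, Hhip and Rbp4), cluster 5 (Dio2, Prss12), cluster 13 (Col11a1, Col8a1) and cluster 14 (Rgs5, Lypd8l). Between 11 and 28 cell barcodes were shared by any pair of libraries. Free RNA, meaning transcripts from other cells captured with a cell, was estimated from markers of other lineages at 2.30 to 6.46% of the UMIs of a unit. AD replicate 1 stood apart with 1634 neutrophil-like cells, against 232 in AD replicate 2, and with 104 of the 105 cells of 1 small cluster. Some of the results that rest on it are given with and without it.

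The ligand Igf1 was found in fibroblast-like cells, in clusters 1, 5 and 13 and, lower, in macrophage-like cells. Its highest mean among the tested units was in cluster 5, with 748 and 886 CPM in AD_ABR and 883 and 979 CPM in AD, above every library of cluster 1 but not of cluster 13, whose AD_ABR libraries held 797 and 808 CPM. Cluster 1 (mean of the 4 libraries 626 CPM), cluster 13 (622 CPM) and fibroblast-like cells (598 CPM) followed and were not apart from each other. Macrophage-like cells averaged 206 CPM and cluster 14 averaged 60.2 CPM, each apart from its neighbours in the order. Smooth muscle-like, endothelial-like and dendritic-like cells averaged 16.8, 13.7 and 5.54 CPM, which overlapped. For these 3 the estimated free RNA was of similar size: in endothelial-like cells it came to 9.21 and 13.3 CPM in AD_ABR and 16.5 and 14.8 CPM in AD, against measured levels of 6.38 and 18.5 CPM in AD_ABR and 13.6 and 16.3 CPM in AD. A further cluster with too few cells to test, led by Grem1, Aox3 and Nrn1, held more Igf1 per UMI than any tested unit, at 1064 and 1488 CPM in AD_ABR and 1777 and 1051 CPM in AD. It had 241 and 72 cells in AD_ABR and 64 and 28 cells in AD.

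Igf2, which is switched down after birth in most mouse tissues, was nearly undetected. All kept cells together held 13 and 6 Igf2 UMIs in AD_ABR and 8 and 10 in AD. Endothelial-like cells held 4 and 2 of these UMIs in AD_ABR and 2 and 7 in AD. That put every endothelial library above every library of the other 8 tested units, although on counts of 2 to 7. Igf2 passed the filter on low counts in the sum over all cells and in none of the 9 units, and no difference between groups was detectable at this depth.

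The receptor Igf1r was spread over all units and was highest in smooth muscle-like cells, at 123 and 116 CPM in AD_ABR and 147 and 118 CPM in AD. Endothelial-like cells followed at a mean of 94.3 CPM, below every smooth muscle library. Cluster 14, cluster 13, fibroblast-like cells, cluster 5 and cluster 1 lay between 60.8 and 88.4 CPM with overlapping neighbours. Macrophage-like cells averaged 26.9 CPM and dendritic-like cells 14.3 CPM, each apart from the unit above.

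The binding proteins differed in the units where they were highest. Igfbp2 lay mainly in cluster 13 (mean 259 CPM) and smooth muscle-like cells (136 CPM). Cluster 14 followed at 10.6 CPM, and the other 6 units lay between 1.67 and 2.81 CPM, where the estimated free RNA was 0.843 to 3.18 CPM in the 3 main classes among them. Igfbp4, a binding protein cut by PAPP-A, was highest in cluster 1 (mean 3450 CPM), apart from fibroblast-like cells (2175 CPM), cluster 5 (1619 CPM) and cluster 13 (1143 CPM). Igfbp5 was highest in cluster 5 (1206 CPM), fibroblast-like cells (959 CPM) and cluster 1 (931 CPM), which overlapped, and was far lower in the other tested units. Igfbp6, which prefers IGF2 over IGF1, was highest in fibroblast-like cells (732 CPM) and cluster 1 (467 CPM). Igfbp3, the main carrier in plasma, was low throughout, with the highest means in fibroblast-like cells (67.7 CPM) and cluster 13 (51.7 CPM), which overlapped. Igfbp7 was abundant in 6 units, with means between 3131 and 6491 CPM that overlapped from neighbour to neighbour. Endothelial-like cells averaged 521 CPM of it, and dendritic-like and macrophage-like cells 113 CPM each.

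**Figure D1:**
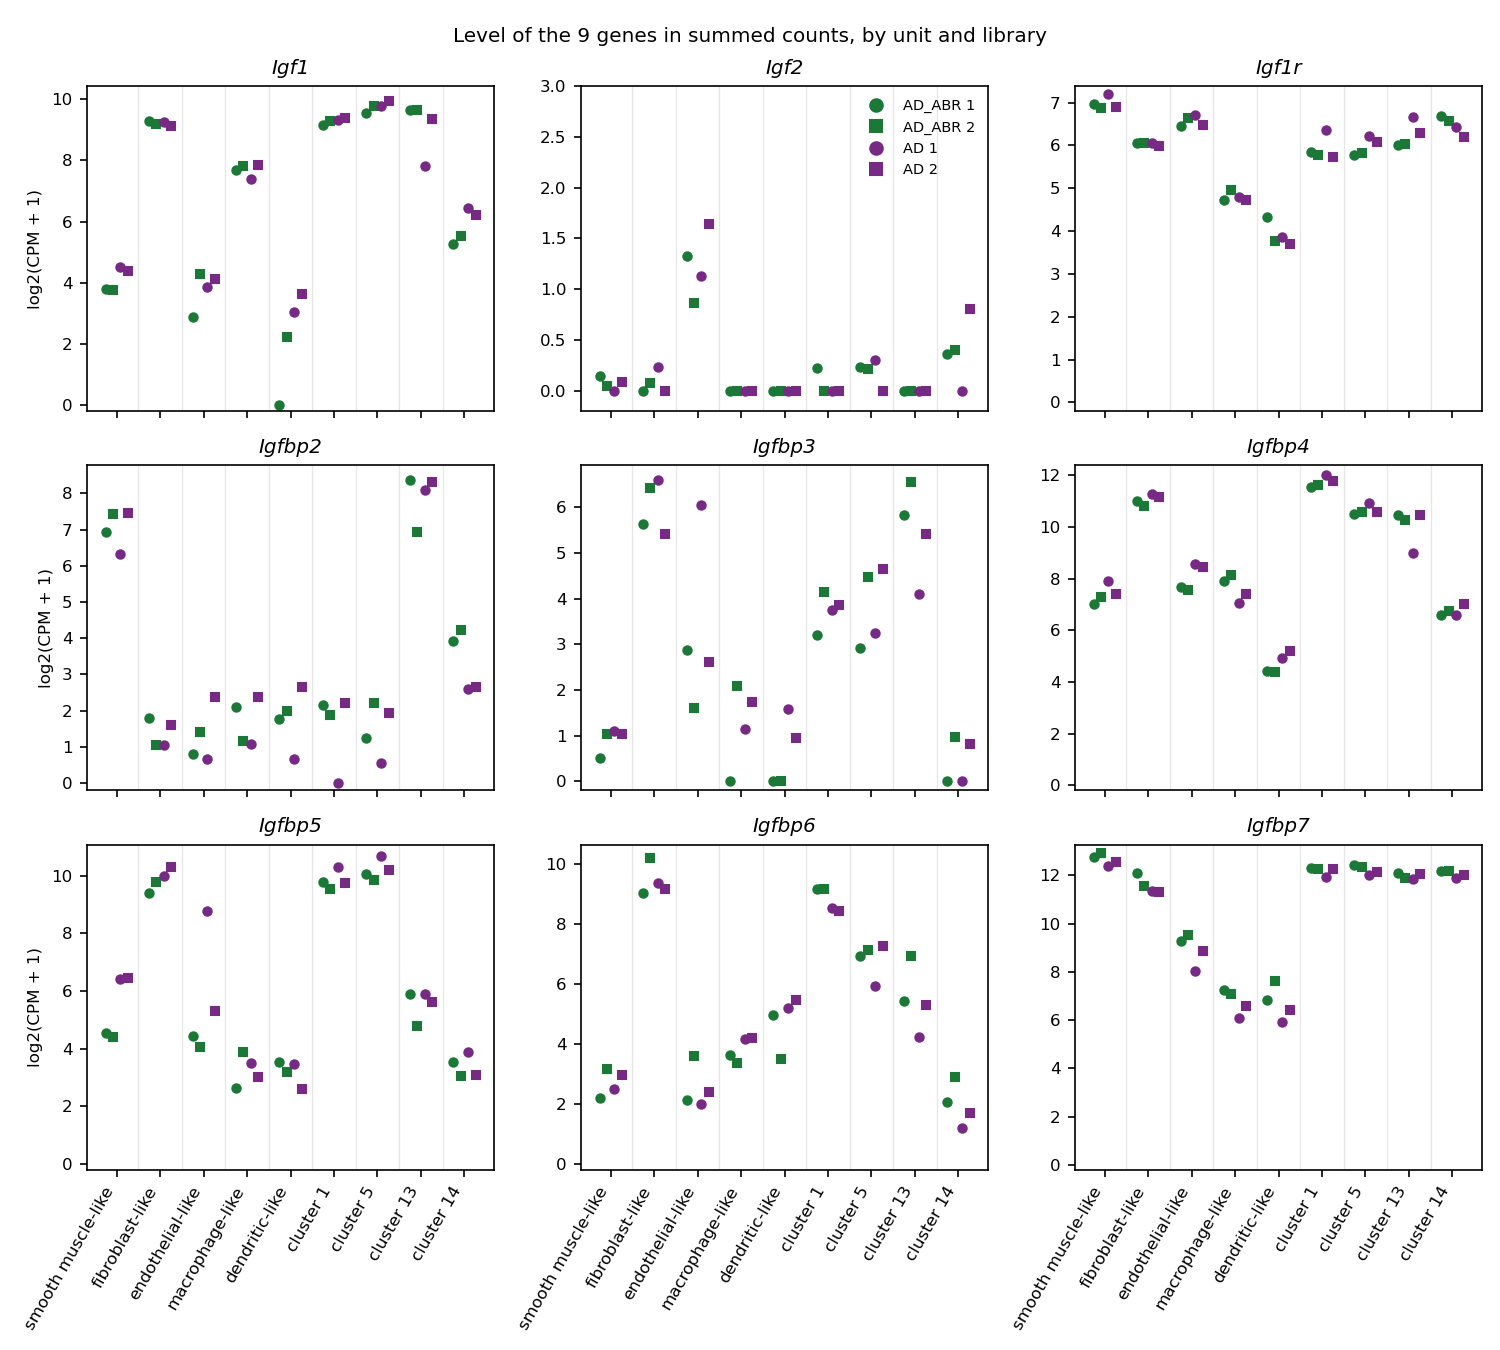
Level of each of the 9 genes, as log2(CPM + 1) of counts summed per unit and library, in the 9 units with at least 50 cells in every library. Each point is 1 library. The classes differ far more than the groups for most genes: Igf1 averaged 598 CPM in fibroblast-like and 16.8 CPM in smooth muscle-like cells, while the unit means of Igf1r lay between 14.3 and 126 CPM.

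Fibroblast-like cells were themselves divided. Cluster 2 (Pi16, C3, Cd55) held 775 and 1533 CPM of Igfbp6 in AD_ABR and 765 and 632 CPM in AD, whereas cluster 7 (Hsd11b1, Tcf21) held 167 and 193 CPM in AD_ABR and 143 and 182 CPM in AD. The 2 clusters did not overlap. Igfbp5 lay at 955 and 1077 CPM in AD_ABR and 1142 and 1420 CPM in AD in cluster 2, and at 257 and 302 CPM in AD_ABR and 462 and 320 CPM in AD in cluster 7. For Igfbp7 the order was the other way round, with 7207 and 6160.3 CPM in AD_ABR and 4886 and 5966 CPM in AD in cluster 7, and 2372 and 1906 CPM in AD_ABR and 2142 and 1989 CPM in AD in cluster 2.

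Where the UMIs of a gene lay also depended on which cells each library held. Cluster 12 (led by Cxcl5, Lif and Timp1) had 46 and 8 cells in AD_ABR and 415 and 595 cells in AD, and it held 4.10 and 0.249% of the Igf1 UMIs in AD_ABR and 26.8 and 21.3% in AD. Of the Igfbp4 UMIs it held 2.94 and 0.209% in AD_ABR and 31.6 and 17.7% in AD. Cluster 1 took the opposite place, with 28.6 and 31.1% of the Igf1 UMIs in AD_ABR and 4.58 and 8.35% in AD, and 45.4 and 46.9% of the Igfbp4 UMIs in AD_ABR and 10.4 and 15.5% in AD. Cluster 13 held 11.96 and 3.07% of the Igfbp2 UMIs in AD_ABR and 47.9 and 44.7% in AD. Smooth muscle-like cells held 82.8 and 93.7% of them in AD_ABR and 46.7% in each AD library. These shares were not tested.

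**Figure D2:**
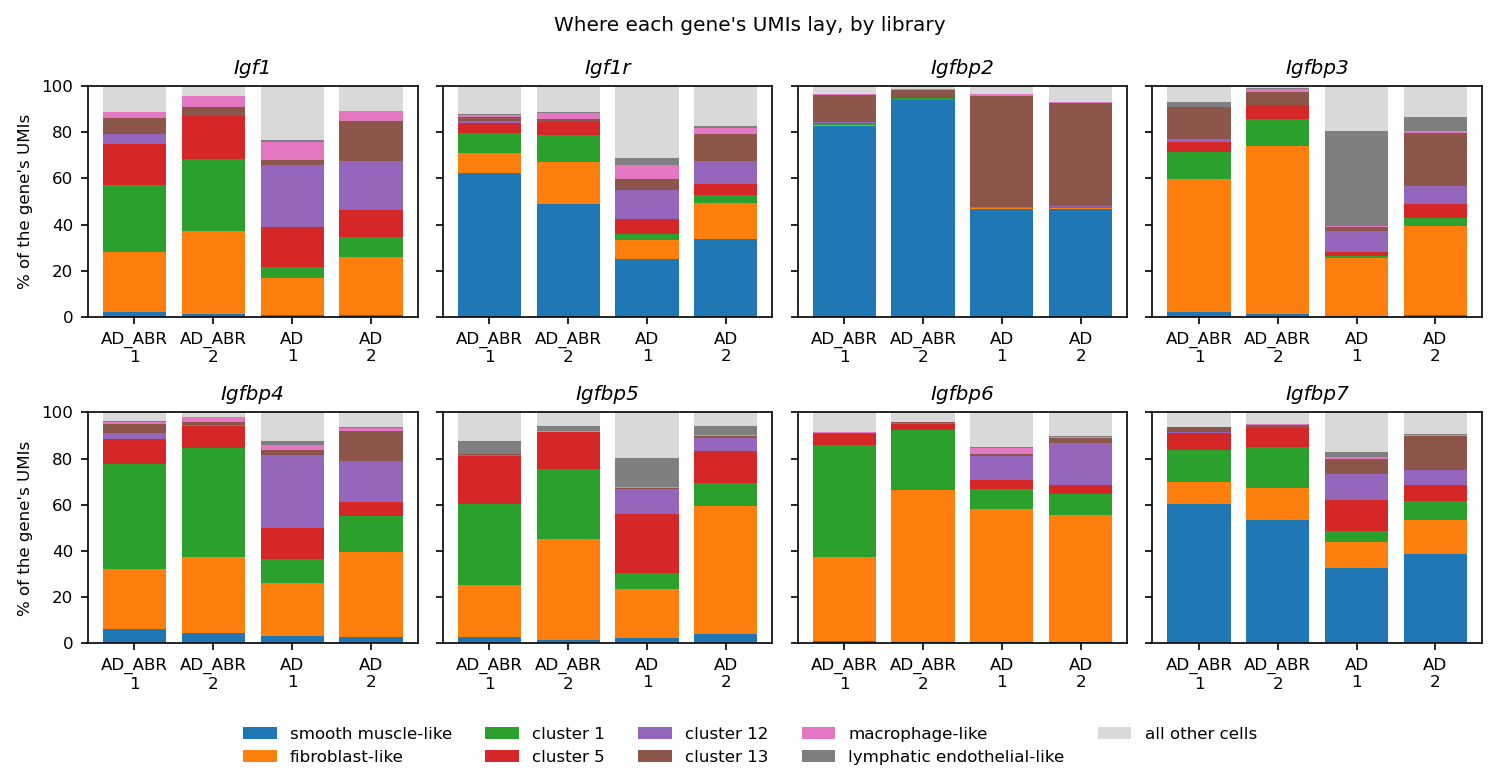
Percent of the UMIs of each gene that lay in each class or cluster, for each library (AD_ABR left, AD right), with all remaining cells in grey. Cluster 12 takes 4.10 and 0.249% of Igf1 in the AD_ABR libraries and 26.8 and 21.3% in the AD libraries.

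Summed over all kept cells, no member passed the test between groups. The test was edgeR's quasi-likelihood test on sums per library, with Benjamini-Hochberg adjustment over all genes tested and a threshold of 0.05, and 3.38% of 20196 genes passed it in this sum. Of the 9, 2 members had an unadjusted p below 0.05, as had 6321 of the 20196 genes. DESeq2 called 2 members, Igfbp6 and Igfbp7, and it called 3685 of 19021 genes in this sum. Igfbp7 stood at 5270.2 and 4741 CPM in AD_ABR and 1952 and 2891 CPM in AD, without overlap, a log2 fold change of 1.14 ± 0.26 (SE; edgeR adjusted p = 0.0693, DESeq2 adjusted p = 0.000222). Without AD replicate 2, which leaves 1 AD library, the edgeR change of Igfbp7 was 1.53 and that of Igfbp2 was 1.83. Igfbp2 had 67.1 and 59.6 CPM in AD_ABR and 20.1 and 70.5 CPM in AD. The library left out thus lay above both AD_ABR libraries for Igfbp2, and AD replicate 1 was the low one. Igf1 stood at 282 and 348 CPM in AD_ABR and 323 and 375 CPM in AD, and Igf1r at 91.2 and 77.6 CPM in AD_ABR and 69.8 and 66.2 CPM in AD. In such a sum, fewer cells of a type and less RNA per cell cannot be told apart.

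In smooth muscle-like cells Igfbp5 and Igf1 fell and Igfbp7 rose in AD_ABR. These were 3 of the 8 members tested, where 19.3% of 14994 genes passed in this class. Igfbp5, a binding protein that sticks to extracellular matrix, had 22.46 and 19.98 CPM in AD_ABR and 84.6 and 86.9 CPM in AD. The groups lay far apart and the libraries within a group were close, with a log2 fold change of -1.93 ± 0.12 (SE; adjusted p = 2.8e-09). The change kept passing but was smaller with doublets kept (-1.18), with a 10% mitochondrial filter (-1.10) and at a clustering resolution of 0.5 (-1.03), each of which alters which cells make up the class. With free RNA subtracted it was larger (-3.04, adjusted p = 0.00108). Igf1 had 12.99 and 12.7 CPM in AD_ABR and 21.6 and 19.8 CPM in AD (-0.60 ± 0.13, adjusted p = 0.00345). The free RNA estimate for Igf1 was 9.37 and 11.5 CPM in AD_ABR and 10.4 and 12.3 CPM in AD, so little or none of the AD_ABR level stood above it, and with free RNA subtracted the call was lost (-1.80, adjusted p = 0.122). Igfbp7 had 6881 and 7773 CPM in AD_ABR and 5333 and 5977 CPM in AD (0.46 ± 0.14, adjusted p = 0.0292). The Igfbp7 call was lost without AD replicate 1 (0.35, adjusted p = 0.0683), without AD_ABR replicate 1 (0.57, 0.0781) and without AD_ABR replicate 2 (0.36, 0.384). It was also lost with doublets kept (0.41, 0.0764), with a 10% mitochondrial filter (0.42, 0.0802) and with the IGF genes kept in the clustering (0.43, 0.0549).

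The other 5 members tested did not pass in smooth muscle-like cells. Igfbp4 had 130.3 and 155 CPM in AD_ABR and 237 and 167 CPM in AD (-0.41 ± 0.14, adjusted p = 0.0584). Its change was -0.61 without AD replicate 2 and -0.55 without AD_ABR replicate 2, each with 1 library left in a group. Igf1r changed by -0.05 ± 0.12 on the log2 scale (adjusted p = 0.785). Igfbp2 varied within the groups, at 120 and 171 CPM in AD_ABR and 78.5 and 175 CPM in AD. Without AD replicate 2 its change was 1.02, with 1 AD library left. Igfbp3 and Igfbp6 lay between 0.433 and 8.03 CPM in every library, levels close to the free RNA estimate.

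**Figure D3:**
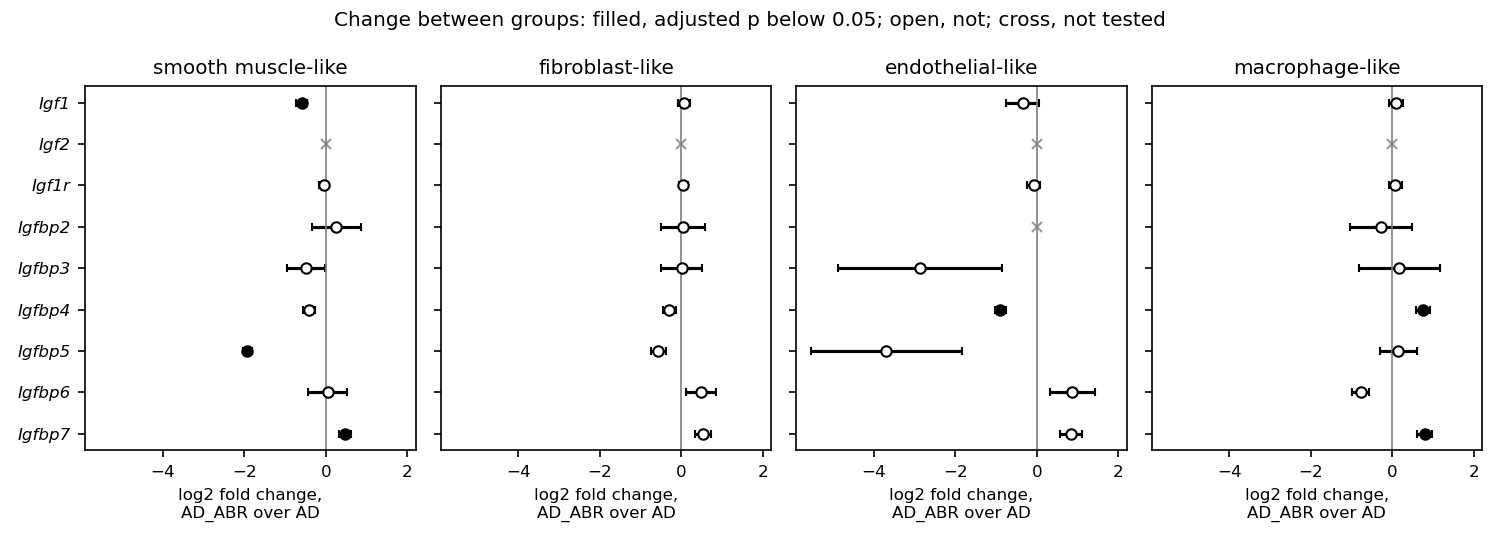
Log2 fold change of AD_ABR over AD for each member in the 4 main classes, with its standard error as a bar (2 libraries per group). Igfbp5 in smooth muscle-like cells lies at -1.93 with a short bar, whereas the wide bars of Igfbp3 and Igfbp5 in endothelial-like cells come with values of -2.87 and -3.69 that did not pass.

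The smooth muscle-like class was made of cluster 0 (Myh11, Myocd), cluster 4 (Tagln, Acta2, Wnt16) and cluster 8 (Des, Sparcl1), and the Igfbp5 level differed between them by more than it did between groups. Cluster 8 held 241 and 185 CPM of Igfbp5 in AD_ABR and 392 and 475 CPM in AD. Its UMIs lay in 47 of 315 and 40 of 200 cells in AD_ABR and in 61 of 201 and 122 of 609 cells in AD. The 10 cells with the most held 284 of 397 and 134 of 207 UMIs in AD_ABR, and 292 of 469 and 472 of 1179 in AD. Clusters 0 and 4 held 10.3 to 13.6 CPM in the AD_ABR libraries and 17.5 to 30.3 CPM in the AD libraries, where free RNA was estimated at 11.8 to 14.2 CPM in AD_ABR and 12.8 to 13.2 CPM in AD. Cluster 8 made up 8.66 and 6.89% of the smooth muscle-like cells in AD_ABR and 20.8 and 26.9% in AD, and it held 45.0 and 36.6% of the class's Igfbp5 UMIs in AD_ABR and 70.1 and 82.6% in AD. Tested alone, an alternative added after seeing the data, Igfbp5 fell in cluster 8 by 0.99 ± 0.17 on the log2 scale (adjusted p = 0.00761, where 2.02% of 9369 genes passed). It fell by 0.73 ± 0.19 in cluster 0 (adjusted p = 0.026, where 10.7% of 13836 genes passed), and in cluster 4 it changed by -0.83 ± 0.23 without passing (adjusted p = 0.0503, where 4.24% of 11719 genes passed). The call in cluster 8 was lost without AD_ABR replicate 2 (-0.80, adjusted p = 0.0789) and that in cluster 0 without AD replicate 1 (-0.38, adjusted p = 0.106). Each single cluster thus changed by less than the class did.

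The summed level of the 11 fibroblast markers was lower in AD_ABR in cluster 8, as was Igfbp5. All 11 were detected in every library, and they summed to 3527 and 3619 CPM in AD_ABR and 4770 and 4951 CPM in AD. Single markers differed: Pdgfra had 11.5 and 8.95 CPM in AD_ABR and 15.9 and 20.1 CPM in AD. Dcn overlapped, with 642 and 417 CPM in AD_ABR and 540 and 956 CPM in AD. The other smooth muscle clusters, which held far less Igfbp5, had fibroblast sums of 4298 to 5019 CPM over their libraries. In cluster 8 the 6 pericyte markers summed to 314 and 456 CPM in AD_ABR and 808 and 726 CPM in AD. The part of the fibroblast and pericyte markers in the Igfbp5 result was not tested.

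Igfbp2 did the reverse of its chromosomal neighbour in cluster 8. It had 80.1 and 76.1 CPM in AD_ABR and 7.52 and 11.7 CPM in AD, a log2 fold change of 2.96 ± 0.25 (adjusted p = 0.000101) that held without each of the 4 libraries in turn. The UMIs sat in few cells: 17 of 315 and 10 of 200 cells held one in AD_ABR, and 5 of 201 and 17 of 609 in AD. The 10 cells with the most accounted for 125 of 132 and 85 of 85 UMIs in AD_ABR, and 9 of 9 and 22 of 29 in AD. In cluster 0 Igfbp2 lay at 63.5 and 89.6 CPM in AD_ABR and 78.9 and 75.3 CPM in AD, and in cluster 4 at 338 and 322 CPM in AD_ABR and 134 and 694 CPM in AD. The response of cluster 8 differed from that of cluster 0 by 2.9998 ± 0.28 (adjusted p = 6e-05, where 0.115% of 12164 genes passed) and from that of cluster 4 by 3.50 ± 0.27 (adjusted p = 2.17e-07, 0.223% of 10764 genes). The level of cluster 8 in AD_ABR was thus that of cluster 0 in either group.

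Igf1 was called in cluster 4 alone among the smooth muscle clusters, at 13.6 and 12.6 CPM in AD_ABR and 22.0 and 24.3 CPM in AD (-0.78 ± 0.20, adjusted p = 0.0371). The AD_ABR values there were close to the free RNA estimate of 9.37 and 11.5 CPM. It was lost without AD replicate 2 (-0.62, adjusted p = 0.206), AD_ABR replicate 1 (-0.83, 0.0906) or AD_ABR replicate 2 (-0.72, 0.235). Cluster 8 held the most Igf1 of the 3 clusters, 57.1 and 52.8 CPM in AD_ABR and 65.2 and 54.0 CPM in AD, and did not pass (-0.06 ± 0.19, adjusted p = 0.908). Igfbp7 did not pass in any of the 3 clusters alone, with log2 fold changes of 0.34 in cluster 0, 0.43 in cluster 4 and 0.48 in cluster 8.

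**Figure D4:**
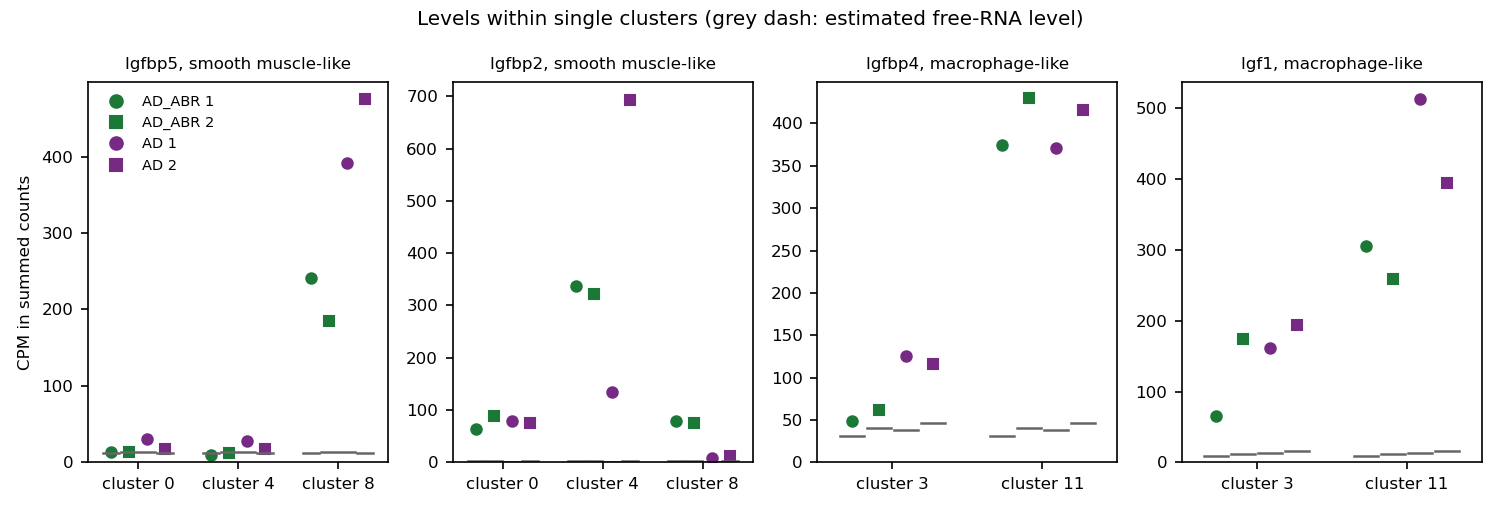
CPM per library within single clusters of the smooth muscle-like (Igfbp5, Igfbp2) and macrophage-like (Igfbp4, Igf1) classes, AD_ABR left of AD, with the estimated free RNA level as a grey dash. Igfbp5 in cluster 8 and Igfbp4 in cluster 3 are lower in AD_ABR, and Igfbp2 in cluster 8 is at 80.1 and 76.1 CPM in AD_ABR and 7.52 and 11.7 CPM in AD.

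Fibroblast-like cells, with the highest mean levels of Igfbp3 and Igfbp6, showed no called member. Cluster 1, which also carried the fibroblast markers, had a call of Igfbp6 that is given with the remaining units. In fibroblast-like cells none of the 8 tested passed with edgeR, where 0.575% of 14081 genes passed. Of the 8, 2 had an unadjusted p below 0.05, as had 2364 of the 14081 genes. DESeq2 called no member, against 278 of 13262 genes. Igf1 had close values in the groups, with 627 and 587 CPM in AD_ABR and 615 and 561 CPM in AD (0.06 ± 0.14, adjusted p = 0.868). Igfbp5 had 671 and 870.1 CPM in AD_ABR and 1021 and 1275 CPM in AD (-0.56 ± 0.18, adjusted p = 0.182). Without AD replicate 1 its change was -0.72, with 1 AD library left. Igfbp7 had 4337 and 3042 CPM in AD_ABR and 2632 and 2511 CPM in AD (0.54 ± 0.20, adjusted p = 0.233). For both, the AD_ABR and AD values did not overlap although neither passed. The class held more of cluster 7 in AD_ABR, 458 of 847 and 658 of 1732 cells, than in AD, with 119 of 567 and 301 of 1533 cells, and neither gene passed in cluster 2 alone, where 0.305% of 13427 genes passed, or in cluster 7 alone, where 0.819% of 10986 did.

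In macrophage-like cells Igfbp4 and Igfbp7 rose, 2 of the 8 members tested, where 8.26% of 12132 genes passed. Igfbp4 had 238 and 285 CPM in AD_ABR and 133 and 171 CPM in AD (0.76 ± 0.17, adjusted p = 0.0321), and the call was lost without AD_ABR replicate 1 (0.89, adjusted p = 0.135) or AD_ABR replicate 2 (0.60, adjusted p = 0.406), with doublets kept (0.54, 0.325) and with a 10% mitochondrial filter (0.69, 0.298). The groups differed in the clusters that made up the class. Cluster 3 (Arg1, Trem2) made up 32.7 and 31.2% of the class in AD_ABR and 85.2 and 69.6% in AD, and cluster 11 (Cd163, Folr2, Lyve1) 61.7 and 62.8% in AD_ABR and 2.85 and 19.1% in AD. Cluster 11 held 375 and 430 CPM of Igfbp4 in AD_ABR and 372 and 416 CPM in AD, and its change was 0.04 ± 0.18 (adjusted p = 0.933, where 3.14% of 8857 genes passed). Within cluster 3 Igfbp4 went the other way, with 48.7 and 62.4 CPM in AD_ABR and 125 and 116 CPM in AD (-1.10 ± 0.19, adjusted p = 0.0154, where 2.2% of 10731 genes passed). Without AD_ABR replicate 1 or AD_ABR replicate 2 that call was lost (-0.93, adjusted p = 0.31, and -1.31, 0.214). Free RNA in this class was estimated at 31.1 and 40.8 CPM of Igfbp4 in AD_ABR and 38.4 and 46.7 CPM in AD. The response of cluster 3 differed from that of cluster 11 by -1.17 ± 0.20 (adjusted p = 0.00525, where 0.577% of 10572 genes passed).

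Igfbp7 in macrophage-like cells, with 153 and 135 CPM in AD_ABR and 67.2 and 95.4 CPM in AD (0.79 ± 0.18, adjusted p = 0.0322), did not exceed free RNA. The estimate was 174 and 167 CPM in AD_ABR and 81.9 and 126 CPM in AD, above the measured level in each library, and no test was left after subtraction. Igfbp7 in the sum over all cells was higher in AD_ABR too. Without AD_ABR replicate 1 or AD_ABR replicate 2 the call was lost (0.72, adjusted p = 0.235, and 0.87, 0.301), as it was with doublets kept (0.95, 0.247) and with a 10% mitochondrial filter (0.73, 0.2). Cluster 3 alone gave 147 and 124 CPM in AD_ABR and 63.1 and 83.9 CPM in AD (0.89 ± 0.19, adjusted p = 0.0398), again below the estimate and again lost without AD_ABR replicate 1 (0.79, adjusted p = 0.378) or AD_ABR replicate 2 (1.01, 0.348). Igf1, the ligand that macrophages make, did not pass in the class, with 203 and 225 CPM in AD_ABR and 168 and 227 CPM in AD (0.09 ± 0.17, adjusted p = 0.798). In cluster 11 it had 306 and 259 CPM in AD_ABR and 513 and 395 CPM in AD, without overlap and without passing (-0.64 ± 0.18, adjusted p = 0.0648). Cluster 11 of AD replicate 1 held only 52 cells.

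In endothelial-like cells Igfbp4 fell, the 1 member called of 7 tested, where 5.63% of 10765 genes passed. It had 206 and 189 CPM in AD_ABR and 375 and 348 CPM in AD, a log2 fold change of -0.90 ± 0.13 (adjusted p = 0.00132). The estimated free RNA was 30.8 and 44.3 CPM in AD_ABR and 46.7 and 42.1 CPM in AD, so the bulk of the level lay above it in every library, and the fall was 1.03 with free RNA subtracted (adjusted p = 0.00121). The call was lost without AD_ABR replicate 1 (-0.95, adjusted p = 0.0727), without AD_ABR replicate 2 (-0.84, 0.0735) and, with doublets kept, at a smaller change (-0.40, 0.192). The 6 lymphatic endothelial markers had a lower sum in AD_ABR too. It was 25.1 and 23.8 CPM in AD_ABR and 69.2 and 52.3 CPM in AD. In each library 4 of the 6 were detected, and Mmrn1 was at 0 in all libraries. Prox1 had 0.750 and 1.23 CPM in AD_ABR and 20.7 and 13.0025 CPM in AD. Flt4 differed less, with 14.3 and 13.1 CPM in AD_ABR and 23.1 and 14.5 CPM in AD. The part of these 6 markers in the result was not tested. The 11 fibroblast markers, all detected, summed to 1875 and 2177 CPM in AD_ABR and 1627 and 2377 CPM in AD, with the AD_ABR values between the AD values.

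A pair of large fold changes in endothelial-like cells rested on few cells of 1 library. Igfbp5 had 20.6 and 15.6 CPM in AD_ABR and 443 and 39.0 CPM in AD, and 734 of the 748 UMIs of AD replicate 1 came from 10 of its 200 cells. Igfbp3 had 6.38 and 2.05 CPM in AD_ABR and 65.1 and 5.14 CPM in AD, and 10 cells held all 110 UMIs of AD replicate 1. Neither passed (Igfbp5 -3.69 ± 1.85, adjusted p = 0.444, and Igfbp3 -2.87 ± 2.02, adjusted p = 0.567). Leaving out AD replicate 1, the log2 fold change of Igfbp5 was -1.16, with 1 AD library left. Without AD replicate 2 the values were -4.61 for Igfbp5 and -3.91 for Igfbp3. That fit had AD replicate 1 as its only AD library, so it held no spread within AD. Igfbp7 had 615 and 739 CPM in AD_ABR and 264 and 467 CPM in AD (0.84 ± 0.27, adjusted p = 0.146). Its change was 0.48 without AD replicate 1 and 1.35 without AD replicate 2, each with 1 AD library left.

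The response of Igfbp4 was the one that differed most often between classes. Tests of the difference were made for each pair of the 4 classes, with the library as a block, and 5 of 48 member tests passed. The Igfbp4 response of macrophage-like cells exceeded that of endothelial-like cells by 1.66 ± 0.20 on the log2 scale (adjusted p = 0.000883, where 2.59% of 12521 genes passed), that of smooth muscle-like cells by 1.13 ± 0.24 (adjusted p = 0.0367, 5.88% of 14869 genes) and that of fibroblast-like cells by 1.01 ± 0.24 (adjusted p = 0.0329, 3.04% of 14750 genes). Each contrast holds the shift between macrophage clusters described for this gene. The response of smooth muscle-like cells minus that of fibroblast-like cells was -1.34 ± 0.18 for Igfbp5 (adjusted p = 0.000777) and -0.65 ± 0.16 for Igf1 (adjusted p = 0.0337), and neither gene passed in fibroblast-like cells. In this contrast 2.78% of 15657 genes passed. No member passed between smooth muscle-like and endothelial-like cells, where 4.29% of 13426 genes passed. There 2 members had an unadjusted p below 0.05, as had 2133 of the 13426 genes. None passed between fibroblast-like and endothelial-like cells either, where 1.32% of 13090 genes passed. In that pair 1 member had an unadjusted p below 0.05, as had 1278 of the 13090 genes. DESeq2 called no member in either pair, against 147 of 7179 and 54 of 4969 genes.

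Several of these differences rested on single libraries or on which cells were counted. The macrophage-endothelial difference was lost without AD_ABR replicate 2 (1.46, adjusted p = 0.0589). The macrophage-smooth muscle and macrophage-fibroblast differences were lost without AD_ABR replicate 1 (adjusted p = 0.201 and 0.215) and without AD_ABR replicate 2 (0.222 and 0.527). With doublets kept all 3 were lost (adjusted p = 0.135 for the endothelial, 0.282 for the smooth muscle and 0.656 for the fibroblast comparison), and likewise with a 10% mitochondrial filter (0.0595, 0.358 and 0.3285). The smooth muscle and fibroblast comparisons were also lost at resolution 0.5 (0.11 and 0.0991) and with the IGF genes kept in the clustering (0.0632 and 0.128), and the smooth muscle one with free RNA subtracted (0.07985). The Igf1 difference was lost without AD replicate 2 (-0.63, adjusted p = 0.192) or AD_ABR replicate 1 (-0.59, adjusted p = 0.103), with free RNA subtracted (-1.90, 0.2395) and at resolution 0.5 (-0.57, 0.0551). The Igfbp5 difference was called in every fit without a library. It was lost with free RNA subtracted (-2.46, adjusted p = 0.111), with doublets kept (-0.49, 0.298) and at resolution 0.5 (-0.59, 0.125).

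Among the remaining units, 3 calls were made in 36 tests of members. In cluster 1 Igfbp6 rose, with 581 and 576 CPM in AD_ABR and 370.1 and 343 CPM in AD (0.74 ± 0.15, adjusted p = 0.0275, where 1.59% of 12793 genes passed). It was lost without AD_ABR replicate 1 (0.76, adjusted p = 0.229) or AD_ABR replicate 2 (0.73, 0.42). Cluster 14 held a fall of Igf1, with 37.7 and 44.6 CPM in AD_ABR and 85.8 and 72.6 CPM in AD (-0.97 ± 0.18, adjusted p = 0.00606, where 2.01% of 10490 genes passed). That call was lost without AD replicate 1 (-0.88, adjusted p = 0.0565) or AD_ABR replicate 1 (-0.84, 0.0628). Igfbp2 rose in cluster 14 on small numbers, 50 and 55 UMIs in AD_ABR and 4 and 7 in AD, or 14.3 and 17.6 CPM in AD_ABR and 5.05 and 5.24 CPM in AD (1.57 ± 0.40, adjusted p = 0.0436). It was lost without AD replicate 1 (1.53, adjusted p = 0.188), AD replicate 2 (1.62, 0.198) or AD_ABR replicate 2 (1.42, 0.279), with free RNA subtracted (1.79, 0.0578) and without Rn18s-rs5 and mitochondrial genes (1.56, 0.0571).

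No member passed in dendritic-like cells (1.51% of 9352 genes passed), cluster 5 (1.57% of 12239) or cluster 13 (0 of 10383 genes). The members with an unadjusted p below 0.05 numbered 4 of 6, 2 of 8 and 1 of 8 in the same order. Among all genes 1239 of 9352, 2117 of 12239 and 850 of 10383 had such a p. DESeq2 called no member in any of the 3, against 114 of 7357, 154 of 11764 and 55 of 10181 genes. With a library left out, and so 1 library in a group, Igfbp7 in dendritic-like cells changed by 0.82 without AD replicate 1. It changed by 1.31 without AD replicate 2 and by 1.41 without AD_ABR replicate 1. Its level there, 113 and 196 CPM in AD_ABR and 59.2 and 83.4 CPM in AD, lay below the free RNA estimate of 150.2 and 207 CPM in AD_ABR and 64.3 and 95.5 CPM in AD in each library. Igfbp6 changed there by -1.30 without AD replicate 1 and by -1.96 without AD_ABR replicate 1. It had 29.8 and 10.4 CPM in AD_ABR and 35.8 and 42.96 CPM in AD. Its free RNA estimate was 4.89 and 16.7 CPM in AD_ABR and 3.17 and 5.82 CPM in AD. In cluster 5, the unit with the highest mean of Igf1, the ligand lay at 748 and 886 CPM in AD_ABR and 883 and 979 CPM in AD (-0.21 ± 0.15, adjusted p = 0.499). Cluster 13 had a wide spread within AD, with Igf1 at 797 and 808 CPM in AD_ABR and at 222 and 660.04 CPM in AD (0.82 ± 0.50, adjusted p = 0.686).

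Lymphatic endothelial-like cells (Prox1, Mmrn1, Ccl21a) had too few cells in AD_ABR to test, 37 and 26, against 310 and 163 in AD. Their Igfbp5 level was 4852 and 2859 CPM in AD_ABR and 1499 and 1017 CPM in AD. The 10 cells with the most held 82.9 and 91.3% of those UMIs in AD_ABR and 61.1 and 46.7% in AD. Igfbp3 lay at 59.98 and 65.4 CPM in AD_ABR and at 384 and 72.9 CPM in AD in these cells, and 92.0% of its UMIs in AD replicate 1 came from 10 cells.

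The wider pathway had calls in several units, the most of any being the 10 in smooth muscle-like cells, the class with the largest share of all genes called among them. Of 42 fixed genes of receptors, proteases, adaptors and the PI3K and Akt cascade, 37 were tested in smooth muscle-like cells and 4 rose and 6 fell. Among all genes tested in that class 8.64% rose and 10.7% fell, and the median log2 fold change was -0.07 for the list and -0.02 for all genes. Eif4ebp1, which restrains translation under mTOR, rose with 90.7 and 107 CPM in AD_ABR and 61.7 and 75.9 CPM in AD (0.60 ± 0.13, adjusted p = 0.00388), and Pik3cb, a catalytic PI3K subunit, rose by 0.54 ± 0.13 (adjusted p = 0.00532). Stc2, an inhibitor of the proteases PAPP-A and PAPP-A2, rose by 0.9993 ± 0.30 at 3.11 and 5.16 CPM in AD_ABR and 2.02 and 2.25 CPM in AD (adjusted p = 0.0239), while its relative Stc1 fell by 1.28 ± 0.26 (adjusted p = 0.00172). Adam12, a protease that can cut binding proteins, fell to 0.815 and 0.813 CPM in AD_ABR, against 3.29 and 2.86 CPM in AD (-1.81 ± 0.32, adjusted p = 0.000493). Adam12 was among the leading genes of cluster 12, which had 46 and 8 cells in AD_ABR and 415 and 595 in AD. Stc2 was among those of cluster 7, with 458 and 658 cells in AD_ABR and 119 and 301 in AD. The part of free RNA in these low levels was not tested. H19, a noncoding RNA gene 72622 bases from Igf2, had 10 and 12 UMIs in AD_ABR and 13 and 58 in AD (-2.98 ± 0.43, adjusted p = 8.45e-05). Tested alone, cluster 0 had 6 of 37 list genes called (10.7% of 13836 genes). Cluster 4 had 1 of 36 called (4.24% of 11719 genes) and cluster 8 had 0 of 32 (2.02% of 9369 genes).

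In the other main classes the pathway calls were fewer. None of 38 list genes tested passed in fibroblast-like cells, where 0.575% of 14081 genes passed. Of the 38, 9 had an unadjusted p below 0.05, as had 2364 of the 14081 genes. DESeq2 called 2 list genes higher, against 95 of 13262 genes. In macrophage-like cells 3 of 32 fell and none rose, where 4.29% of all genes fell and 3.96% rose. Gab1, a docking adaptor, fell by 1.005 ± 0.21 (adjusted p = 0.0239), Tsc1, a brake on mTOR, by 0.86 ± 0.20 (adjusted p = 0.0389) and Igf2r, the receptor that clears IGF2, by 1.68 ± 0.38 (adjusted p = 0.0431). Igf2r had 2.72 and 7.13 CPM in AD_ABR and 18.9 and 14.3 CPM in AD. The groups differed in the clusters that made up this class. Tested alone, cluster 3 had 1 of 30 list genes called (2.2% of 10731 genes) and cluster 11 had 1 of 24 (3.14% of 8857 genes). The part of the cluster mix in the falls was not tested. In endothelial-like cells 3 of 31 fell and 1 rose, where 4.09% of all genes fell and 1.54% rose. Socs2, an inhibitor of growth hormone signalling, had 69.4 and 68.1 CPM in AD_ABR and 117 and 149 CPM in AD (-1.002 ± 0.17, adjusted p = 0.00279). The insulin receptor gene Insr had 18.8 and 18.05 CPM in AD_ABR and 34.3 and 28.1 CPM in AD (-0.77 ± 0.21, adjusted p = 0.0499), and Irs2, the adaptor below it, fell by 1.28 ± 0.31 (adjusted p = 0.0298). Htra1, a serine protease that cuts binding proteins, rose with 862 and 859 CPM in AD_ABR and 473 and 645 CPM in AD (0.58 ± 0.16, adjusted p = 0.0455).

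Genes whose levels followed a member most closely across the 20 sums of 5 named classes and 4 libraries were taken from 9157 genes of at least 20 CPM in some sum, 3 for each member. For Igfbp2 they were Casq1, Actn2 and Myh11 (Pearson r of 0.99 for each, on log2(CPM + 5)), and for Igfbp7 Map1lc3a, Col4a5 and Wfdc1 (0.99 for each). For Igfbp6 they were Lgi4 (0.97), Inmt (0.95) and Apod (0.95), for Igfbp5 Akap12 (0.96), Fam171a2 (0.95) and Cdh11 (0.95), and for Igfbp4 Mir99ahg (0.97), Steap3 (0.96) and H6pd (0.95). Igf1 went with Tmem119 (0.97), Idh1 (0.96) and C4b (0.96), Igf1r with Dst (0.99), Rock2 (0.98) and Aldh6a1 (0.98), and Igfbp3 with Pi4k2b, Ssr3 and Wnt2 (0.93 each). The 20 points share classes and libraries, so these coefficients carry no p-value.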

How the data were processed

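Per the file headers, the deposited matrices held whole-number UMI counts per gene and cell, written by Cell Ranger 7.1.0, while the submitters' processing notes name Cell Ranger 6.0, STAR and Seurat 4.0. The counts were used as deposited, and no per-sample column went unmapped. Cells with under 200 genes or over 20% mitochondrial UMIs were removed, as were the highest doublet scores at 0.8% per 1000 cells (against 246 and 499 in AD_ABR and 1 and 271 in AD by the cutoff that the caller picked), leaving 37259 cells in 28 clusters (scanpy 1.11.5, leidenalg 0.10.2). UMIs were summed per library and unit and tested with edgeR 4.0.16 in R 4.3.3 (TMM scaling, filterByExpr, robust quasi-likelihood test, Benjamini-Hochberg adjustment over all genes), with DESeq2 1.42.0 as an alternative. Fits that leave 1 library in a group assume that it varies like the other group's libraries. The scripts were tested on simulated data.

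The members, marker lists and pathway list were chosen with earlier results of these data known. Named genes were the members and, of the pathway list, at most 3 called genes per direction and main class. Replicates may be technical, so p-values measure only the spread between these libraries, and intervals for counts cover counting error only.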

Additional observations from a re-analysis of the deposited data

Results flagged for a closer look

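Differences between the responses of classes or clusters, each as the log2 change of AD_ABR over AD in one minus that in the other, passed the test of the difference itself for 8 comparisons (edgeR's quasi-likelihood test, Benjamini-Hochberg adjustment). Igfbp5 differed by -1.34 between smooth muscle-like and fibroblast-like cells (adjusted p = 0.000777), and Igf1 by -0.65 (adjusted p = 0.0337). Igfbp4 differed by -1.13 between smooth muscle-like and macrophage-like cells (adjusted p = 0.0367), by -1.01 between fibroblast-like and macrophage-like cells (adjusted p = 0.0329) and by 1.66 between macrophage-like and endothelial-like cells (adjusted p = 0.000883). Within the macrophage-like class, Igfbp4 differed by -1.17 between cluster 3 and cluster 11 (adjusted p = 0.00525). Within the smooth muscle-like class, Igfbp2 differed by 2.9998 between cluster 8 and cluster 0 (adjusted p = 6e-05) and by 3.50 between cluster 8 and cluster 4 (adjusted p = 2.17e-07). In each of these comparisons 6 to 8 members were tested, and 0.115 to 5.88% of all genes passed. The differences between classes were each lost in 3 to 7 of 13 alternatives. The comparisons between single clusters were added after seeing the data, and none passed for cluster 4 against 0 or cluster 7 against 2.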

How the results depend on the processing

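Of 1503 planned recomputations of single values, 1373 kept their side of the threshold (163 of them passing in neither fit and with the other sign), 50 no longer passed, 78 newly passed and 2 turned round. Most of these values had not passed in the main fit, and the 50 losses fell on the calls alone. In smooth muscle-like cells the Igfbp5 call was lost in 1 of 17 alternatives and the Igfbp7 call in 9 of 17, single clusters included. The Igfbp4 difference between smooth muscle-like and macrophage-like cells was lost in 7 of 13. Igfbp6 in smooth muscle-like cells was -7.66 with free RNA subtracted, and the smooth muscle-endothelial difference of Igfbp5 was -0.81 without AD replicate 1 and 2.73 without AD replicate 2. Igfbp4 in macrophage-like cells was -1.10 in cluster 3 alone, which was chosen after seeing the data. The cause was not tested in these cases.

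With libraries left out one at a time, the count of members called ranged from 2 to 5 in smooth muscle-like cells (3 with all libraries), 0 to 1 in fibroblast-like (0), 0 to 3 in macrophage-like (2), 0 to 4 in endothelial-like (1), 2 to 14 in the remaining units (3), 0 to 2 in all cells summed (0) and 2 to 14 for differences between classes (5). With no filter on low counts the counts were 2 in fibroblast-like, 2 in endothelial-like, 8 in the remaining units, 1 in all cells and 13 for differences. With doublets kept they were 1 in fibroblast-like, 0 in macrophage-like, 0 in endothelial-like, 0 in the remaining units and 1 for differences. With a 10% mitochondrial filter they were 0 in macrophage-like cells and 3 for differences, and at resolution 0.5 there was 1 difference. With free RNA subtracted macrophage-like cells had 1. DESeq2 gave 2 in all cells, where it called 3685 of 19021 genes. Clusters 0 and 4 alone had 1 each and cluster 11 alone had 0.

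The replicate numbers were not taken as pairs in the main fits. Across genes, deviations of same-numbered libraries correlated between -0.086 and 0.146. Such a correlation cannot show whether samples were handled in pairs. With the replicate block, 3 members were called in endothelial-like cells and 5 in the remaining units. The share of all genes called in that fit is not reported here.

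Depth limited the low genes most, Igf2 having 6 to 13 UMIs per library.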

Other observations

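Mesothelial-like cells (Msln, Krt19), with 27 and 51 cells in AD_ABR and 29 and 20 in AD, held 7672 and 4269 CPM of Igfbp5 in AD_ABR and 95.2 and 835 CPM in AD. The groups did not overlap, but the UMIs sat in few cells. The 10 cells with the most held 2379 of 2536 and 1327 of 1411 UMIs in AD_ABR. In AD the UMIs were 8 in 2 cells and 65 in 5 cells. With so few cells no test was made. Cluster 12 held 1125 and 467 CPM of Igf1 in AD_ABR and 579 and 538 CPM in AD, and 2697 and 1308 CPM of Igfbp4 in AD_ABR and 1928 and 1275 CPM in AD, with 46 and 8 cells in AD_ABR behind those values. Pappa, the gene of the protease PAPP-A, fell in cluster 5 with 7.80 and 5.54 CPM in AD_ABR and 26.1 and 13.3 CPM in AD (-1.59 ± 0.32, edgeR adjusted p = 0.0456), a gene named after its value was seen.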
